A study of Mus musculus with 6 samples.

Results

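The mRNA levels of 10 genes for plasma proteins made by the liver were examined, taken by their symbols from the 23284 genes that were counted: the carriers Alb, Ttr, Rbp4 and Gc, the fetuins Ahsg and Fetub, and the inter-alpha-trypsin inhibitor heavy chains Itih1, Itih2, Itih3 and Itih4. They were measured by paired-end sequencing of 6 libraries of liver RNA from C57BL/6 mice aged 8 weeks, 3 libraries from mice given vehicle and 3 from mice given FGF19 at 1 mg/kg. Treatment lasted 6 h and followed an overnight fast, and food stayed withheld until the end. By the study's methods the libraries are of 3 mice a group, with a single library for each sample. FGF19 is the human counterpart of the mouse gut hormone FGF15.

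Hepatocytes secrete most proteins of the plasma. Albumin carries fatty acids, bile pigments and drugs and keeps water in the circulation. Transthyretin (Ttr) carries thyroxine and binds retinol-binding protein (Rbp4), which carries retinol, while the protein of Gc binds vitamin D metabolites and free actin. Fetuin-A (Ahsg) keeps calcium phosphate in solution, and fetuin-B (Fetub) inhibits the protease that hardens the egg coat. The heavy chains of Itih1, Itih2 and Itih3 are linked through a chondroitin sulfate chain to bikunin, a protease inhibitor cut from the Ambp precursor, and can be passed on to hyaluronan by the protein of Tnfaip6. The protein of Itih4 circulates without bikunin. In inflammation the liver is known to make less of several carriers, which are therefore called negative acute phase proteins, and more of others.

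The 4 Itih genes lie at 2 places in mouse genome build mm9, whose coordinates the count files use. Itih4 (31699678 to 31715169, plus strand), Itih3 (31721760 to 31736773, minus strand) and Itih1 (31742366 to 31756475, minus strand) follow each other on chromosome 14, and Itih2 (10016218 to 10052310, minus strand) is on chromosome 2. Alb (90889915 to 90905629, plus strand) and Gc (89846536 to 89886923, minus strand) are on chromosome 5, and Rbp4 (38191110 to 38199811, minus strand) is on chromosome 19. The upstream sequences below show the neighbours Itih4 and Itih1, which differed most in their response among the 3 genes of the cluster, and the carriers Alb and Gc. Each is the 250 bases before the annotated start of the gene, read 5′ to 3′ on the strand of the gene in mm9: chr14:31699428-31699677 on the plus strand, chr14:31756476-31756725 on the minus strand, chr5:90889665-90889914 on the plus strand and chr5:89886924-89887173 on the minus strand. Capitals mark matches to 5 short motifs searched on both strands, namely TTCNNNGAA (STAT), CTGGGAA (type II IL-6 response element), TTNNGCAA (C/EBP), GTTAAT and the NF-kappaB motif. The start used is that of the count files. GENCODE places the first base of Gc further downstream, at 89886790 in place of 89886923, so the matches in Gc lie further from that start. It places the first base of Itih4 slightly further upstream. It also starts Itih3 and Itih2, which are not shown, further upstream, so that most of the window of Itih3 and the whole window of Itih2 lie within the gene as GENCODE has it.
Itih4: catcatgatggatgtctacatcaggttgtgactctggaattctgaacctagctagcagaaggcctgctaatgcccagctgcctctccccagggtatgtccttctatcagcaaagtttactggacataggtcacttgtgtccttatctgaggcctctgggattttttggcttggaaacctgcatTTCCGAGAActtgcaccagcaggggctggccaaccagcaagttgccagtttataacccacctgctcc
Itih1: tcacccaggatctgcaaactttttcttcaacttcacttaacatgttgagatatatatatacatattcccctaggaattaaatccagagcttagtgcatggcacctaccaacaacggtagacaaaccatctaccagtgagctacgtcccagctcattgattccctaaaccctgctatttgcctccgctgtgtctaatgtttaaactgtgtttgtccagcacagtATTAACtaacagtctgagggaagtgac
Alb: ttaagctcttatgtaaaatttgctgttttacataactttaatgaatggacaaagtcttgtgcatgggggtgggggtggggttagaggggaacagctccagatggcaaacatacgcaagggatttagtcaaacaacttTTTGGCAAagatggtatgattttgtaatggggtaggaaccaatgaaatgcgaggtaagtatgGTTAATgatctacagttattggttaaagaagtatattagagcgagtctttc
Gc: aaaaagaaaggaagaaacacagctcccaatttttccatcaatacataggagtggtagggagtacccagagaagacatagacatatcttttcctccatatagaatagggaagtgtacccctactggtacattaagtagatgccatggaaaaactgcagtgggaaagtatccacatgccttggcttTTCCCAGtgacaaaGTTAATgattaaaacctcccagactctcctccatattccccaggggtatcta

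The match in Itih4 is TTCCGAGAA, a STAT motif from base -67 to -59 before the start. It was the only match to that motif among the 10 genes, and 6.84% of 23091 upstream sequences of the same length held 1 or more. The letters GTTAAT occurred in 3 of the 10, at -51 to -46 in Alb, at -52 to -47 in Gc and at -27 to -22 in Itih1, where the background was 5.64%. A C/EBP motif occurred in Alb, Ahsg and Itih2 (3 of the 10, background 8.58%, the match in Itih2 lying within the gene by GENCODE), the type II IL-6 response element in Gc alone (background 9.10%), and the NF-kappaB motif in none (background 0.359%). Ttr, Rbp4, Fetub and Itih3 held none of these letters in this window, which for Itih3 is mostly inside the GENCODE gene. The C/EBP and STAT motifs can overlap each other, and did not here. These matches describe the sequence and show no binding.

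The number of reads counted on a gene is set by the level and the length of its mRNA. Totals were between 18994654 and 22920056 counts per library, and the 10 genes had between 12279 counts (Fetub) and 1523635 counts (Alb) in a library, so counting error was small beside the spread between libraries. Together they took between 9.92% and 10.3% of the counts in vehicle libraries and between 9.79% and 10.2% in FGF19 libraries. The means were 10.1% ± 0.193 and 9.96% ± 0.186 (SD, n = 3 each), and the groups overlapped (two-sided exact permutation test, p = 0.200, where 0.1 is the smallest p that 3 libraries against 3 can give). As a share of counts per kilobase of exon (TPM) they took between 9.85% and 10.2% with vehicle and between 9.60% and 9.83% with FGF19, which did not overlap (difference -0.287 percentage points, exact permutation p = 0.1). With 12 positive acute phase genes left out of the total, the share of the counts was instead higher with FGF19 (10.3% with vehicle, 10.6% with FGF19, exact permutation p = 0.300). These 12 genes were chosen with their rise in these data known. They took 2.00% of the counts with vehicle and 6.04% with FGF19 on average. Leaving them out therefore raises the share more with FGF19 by construction, and the turn is no result about the 10 genes. No exon of the 10 genes shares positions with another counted gene, and no stretch of 100 bases of their coding transcripts occurs in a coding transcript of another gene. In the GENCODE annotation of mm9 an exon of Ttr overlaps that of Gm16090, and strand was not used in counting. FGF19 replicate 3 differed more from the other FGF19 libraries (chi-square of the counts over its degrees of freedom 25.1 and 33.2) than these did from each other (7.10). The pairs of vehicle libraries were between 13.3 and 23.7, and pairs across the groups between 57.2 and 83.5.

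Levels below are in CPM, the count of a gene brought to a common library total with TMM factors. For each of the 12559 genes that passed a filter on low counts, FGF19 was set against vehicle by the quasi-likelihood test of edgeR, and p-values were adjusted after Benjamini and Hochberg over these genes. All 10 genes passed the filter. Itih3 and Itih4 were higher in FGF19 libraries at an adjusted p under 0.05, which is 2 of the 10, where 4.56% of all genes tested were. The same 2 genes were higher at the study's threshold of p under 0.01 (6.20% of all genes). In the lower direction 0 of the 10 were called at either threshold, where 2.84% and 4.98% of all genes were, a count too near that background to be a result about the 10 genes. At an unadjusted p under 0.05, 1 was lower, Rbp4 (11.3% of all genes lower, 11.6% higher). At an adjusted p under 0.05 DESeq2 called Rbp4 lower (4.13% of all genes), and edgeR's likelihood ratio test and limma-voom called 0. At p under 0.01 Rbp4 was also lower with the likelihood ratio test, without TMM scaling and without the filter. The median log2 fold change of the 10 genes was -0.06, and that of all genes tested was -0.00076. Every FGF19 library was above every vehicle library for the same 2 genes, Itih3 and Itih4 (14.5% of all genes tested), and below for 0 (13.8%). Groups without overlap in either direction made up 28.3% of all genes tested.

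**Figure D1:**
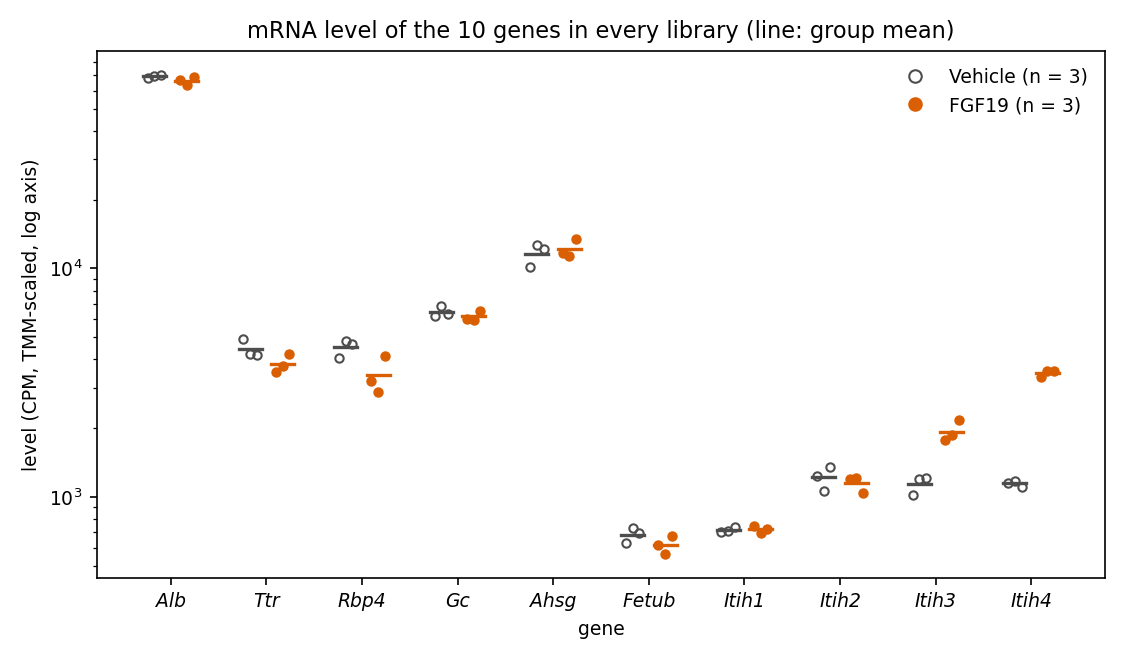
The level of each gene in each library is plotted in CPM on a log axis, with open grey circles for the 3 vehicle libraries, filled orange circles for the 3 FGF19 libraries and a line at each group mean. The groups are apart for Itih3 and Itih4 and overlap for the other 8 genes.

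Itih4 showed the largest difference of the 10 genes. It was at 1153, 1177 and 1109.5 CPM in vehicle replicates 1, 2 and 3, and at 3363, 3573 and 3549.8 CPM in FGF19 replicates 1, 2 and 3. The lowest FGF19 library was far above the highest vehicle library, and the libraries of a group were close together. The group means were 1147 ± 34.3 CPM and 3495 ± 115 CPM (SD, n = 3 each), a 3.05-fold difference. The log2 fold change was 1.61 (standard error 0.09, 95% interval 1.41 to 1.81, adjusted p = 1.52e-05 from the edgeR test), and by its p Itih4 ranked 10 among the 12559 genes tested. In the 15 alternative fits its log2 fold change was between 1.59 and 1.64 and the adjusted p was at most 0.000518.

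Itih3, which lies 6591 bases from Itih4 on the other strand, rose less. Its level was 1023, 1197 and 1209.6 CPM in vehicle replicates 1, 2 and 3, and 1777, 1861 and 2164 CPM in FGF19 replicates 1, 2 and 3. The groups were again apart, and FGF19 replicate 3 was the highest. The means were 1143 ± 104 CPM and 1934 ± 204 CPM (SD, n = 3 each), a 1.69-fold difference with a log2 fold change of 0.76 (standard error 0.11, 95% interval 0.51 to 1.01, adjusted p = 0.00417 from the edgeR test). The adjusted p was at most 0.0219 in the 15 alternative fits, in which the log2 fold change was between 0.67 and 0.82.

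Itih1 and Itih2, the heavy chains that form inter-alpha-inhibitor together with bikunin, were not called. Itih1 was at 706, 714 and 738 CPM in the vehicle libraries and at 746, 694 and 725 CPM in the FGF19 libraries. Its values interleaved between the groups, and the log2 fold change was 0.01 (95% interval -0.18 to 0.19, adjusted p = 0.980 from the edgeR test). Itih2 was at 1242, 1067 and 1353 CPM with vehicle and at 1198, 1209 and 1044 CPM with FGF19. Its groups overlapped too, and the log2 fold change was -0.08 (95% interval -0.34 to 0.17, adjusted p = 0.712 from the edgeR test). It was -0.17 without vehicle replicate 2 and -0.0032 without vehicle replicate 3.

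Ratios between genes of the same library do not depend on how libraries are scaled, and they test whether the heavy chains responded unequally. The ratio of Itih4 counts to Itih1 counts was 1.63, 1.65 and 1.503 in the vehicle libraries and 4.51, 5.15 and 4.89 in the FGF19 libraries. It was thus 3.04-fold higher after FGF19. The ratio of Itih4 to Itih3 was 1.13, 0.984 and 0.917 with vehicle and 1.89, 1.92 and 1.64 with FGF19, which is 1.80-fold higher, and that of Itih3 to Itih1 was 1.68-fold higher. In these 3 pairs, and in those of Itih3 and Itih4 with Itih2, the groups did not overlap, and each gave the smallest possible two-sided exact permutation p of 0.1 (adjusted p = 0.178 over the 16 pairs compared). The ratio of Itih2 to Itih1 overlapped between the groups (log2 difference -0.09, exact permutation p = 0.500).

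Because the exact test cannot fall below 0.1, the ratios were also fitted with edgeR's quasi-likelihood test across all genes, with the counts of the second gene of a pair as the library size, an alternative chosen after the data had been seen. With Itih1 as the reference the log2 difference was 1.604 for Itih4 (95% interval 1.38 to 1.83, adjusted p = 1.59e-05 over 12558 genes in edgeR) and 0.76 for Itih3 (95% interval 0.50 to 1.01, adjusted p = 0.00350 in edgeR). With Itih3 as the reference the log2 difference of Itih4 was 0.85 (95% interval 0.56 to 1.141, unadjusted p = 2.37e-05 and adjusted p = 0.000211 in edgeR). Itih3 itself rose, so that unchanged genes appear lower in this fit. Its adjusted p is therefore lenient and cannot be set beside those with Itih1 as the reference. Itih4 therefore rose more than Itih3, and both rose more than Itih1, beyond the spread between libraries. Against Alb, the log2 difference was 1.67 for Itih4 and 0.82 for Itih3 (adjusted p = 2.09e-05 and 0.00214 in edgeR), and none of the other 7 genes passed, with adjusted p between 0.129 (Rbp4) and 0.998 (Gc). In the exact test the ratio of Itih1 to Alb also did not overlap between the groups, with a log2 difference of 0.07.

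The coding sequences of the 4 heavy chains are similar in length, from 2670 bases (Itih3) to 2853 bases (Itih2) in the longest GENCODE transcript of each. Aligned in pairs, between 59.3% (Itih1 with Itih2) and 66.2% (Itih1 with Itih3) of the bases were identical. Itih3 and Itih4, the pair that rose, were identical at 63.4% of aligned bases, within the range of the other pairs.

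**Figure D2:**
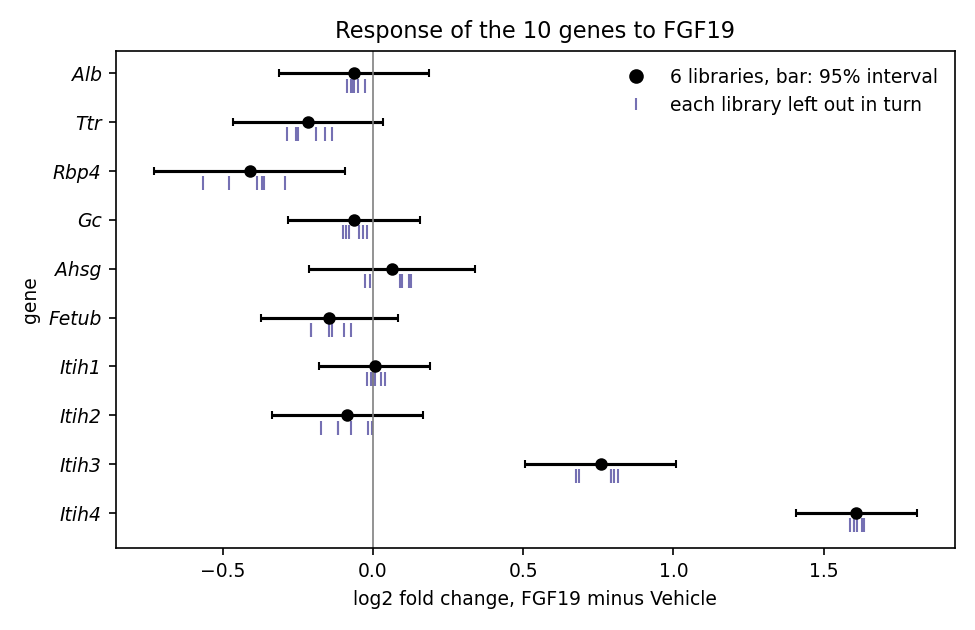
The log2 fold change of each gene, FGF19 minus vehicle, is plotted as a black point with its 95% interval from edgeR's quasi-likelihood fit, and purple ticks give the value with each library left out in turn. The intervals of Itih3 and Itih4 lie above 0.5 and 1.4, that of Rbp4 lies below 0, and those of the other 7 genes include 0.

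Among the carriers, Rbp4 had the lowest log2 fold change. It was at 4076, 4828 and 4668 CPM in vehicle replicates 1, 2 and 3, and at 3217, 2876 and 4124 CPM in FGF19 replicates 1, 2 and 3. The groups overlapped, because FGF19 replicate 3 was above vehicle replicate 1. The means were 4524 ± 396 CPM and 3406 ± 645 CPM (SD, n = 3 each), with a log2 fold change of -0.41 (standard error 0.14, 95% interval -0.73 to -0.09), and its adjusted p in edgeR was 0.119, which does not pass 0.05. Without FGF19 replicate 3 the log2 fold change was -0.57 and Rbp4 passed (adjusted p = 0.00999), and it passed with DESeq2 on all libraries (adjusted p = 0.0431). In the other 13 alternative fits it did not, and the adjusted p over all 15 was between 0.00999 and 0.377.

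Ttr, on chromosome 18, whose protein forms a complex with that of Rbp4 in plasma, was at 4901, 4238 and 4171 CPM with vehicle and at 3527, 3731 and 4207 CPM with FGF19. FGF19 replicate 3 lay again among the vehicle libraries. The log2 fold change was -0.22 (95% interval -0.47 to 0.03, adjusted p = 0.289 from the edgeR test), and it was between -0.29 and -0.14 in the 15 alternative fits, with no call in any of them.

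Alb was the gene with the most counts in all 6 libraries, and took between 6.88% and 7.05% of the counts in vehicle libraries and between 6.53% and 6.68% in FGF19 libraries. After scaling it was at 68204, 69207 and 70411 CPM with vehicle and at 66500.1, 63497 and 68944 CPM with FGF19. FGF19 replicate 3 was within the vehicle range, and the means of 69274 ± 1105 CPM and 66314 ± 2728 CPM (SD, n = 3 each) gave a log2 fold change of -0.06 (95% interval -0.31 to 0.19, adjusted p = 0.789 from the edgeR test). The share of Alb in the raw counts did not overlap between the groups while its TMM-scaled level did. Gc was at 6208, 6848 and 6299 CPM with vehicle and at 6039, 5973 and 6511 CPM with FGF19. Its log2 fold change was also -0.06 (95% interval -0.28 to 0.16, adjusted p = 0.758 from the edgeR test), and the ratio of Gc to Alb was 0.0910, 0.0989 and 0.0895 with vehicle and 0.0908, 0.0941 and 0.0944 with FGF19, which overlapped.

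The fetuins are neighbours on chromosome 16, Ahsg from 22892115 to 22899511 and Fetub from 22918455 to 22939841, both on the plus strand. Ahsg was at 10109, 12618 and 12119 CPM in vehicle replicates 1, 2 and 3 and at 11690.0, 11317 and 13415 CPM in FGF19 replicates 1, 2 and 3. The lowest value was that of vehicle replicate 1 and the highest that of FGF19 replicate 3, so that the log2 fold change of 0.06 (95% interval -0.21 to 0.34, adjusted p = 0.810 from the edgeR test) was -0.03 without the former and -0.01 without the latter. Fetub was at 628, 733 and 695 CPM with vehicle and at 619.8, 564 and 674 CPM with FGF19, with a log2 fold change of -0.15 (95% interval -0.37 to 0.08, adjusted p = 0.444 from the edgeR test). The ratio of Fetub to Ahsg was 0.0621, 0.0581 and 0.0573 with vehicle and 0.0530, 0.0498 and 0.0503 with FGF19. This ratio was lower in all 3 FGF19 libraries (exact permutation p = 0.1, the smallest possible), and with Ahsg as the reference in edgeR the difference did not pass (log2 difference -0.21, 95% interval -0.50 to 0.07, adjusted p = 0.488).

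To compare levels between genes, CPM were divided by the exon length in kilobases. In vehicle libraries Alb was highest at 33908 ± 541 CPM per kilobase (SD, n = 3), followed by Ahsg at 7879.9 ± 901. Ttr (3634 ± 331), Gc (3560.4 ± 191) and Rbp4 (3488 ± 306) came next, and their ranges overlapped from each to the next. Itih3 (406 ± 37.0), Itih2 (391 ± 46.2), Fetub (384 ± 29.8) and Itih4 (365 ± 10.9) formed a further set with overlapping ranges, and Itih1 was lowest at 234 ± 5.42. In FGF19 libraries Itih4, at 1111 ± 36.5 CPM per kilobase, and Itih3, at 687 ± 72.4, stood above this set and apart from each other. Itih2 (369 ± 29.5) and Fetub (347 ± 31.0) still overlapped, and Itih1 (235 ± 8.42) remained lowest. The order of the abundant genes was Alb, Ahsg, Gc, Ttr and Rbp4, the last 3 overlapping from each to the next. By raw counts Itih4 ranked between 32 and 113 among all genes of a library and Itih3 between 65 and 121.

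Within 50 kb of the 10 genes, 15 other genes were tested, and 1 of them was called. It was higher, where 4.56% of all genes tested were, so that the count is near that background. Dnajb11, a chaperone gene of the endoplasmic reticulum that lies 12408 bases from Ahsg, was at 92.7, 99.2 and 83.7 CPM with vehicle and at 213, 203 and 192 CPM with FGF19 (log2 fold change 1.142, adjusted p = 0.000216 from the edgeR test), while Ahsg and Fetub beside it were not called. None of the 15 was lower at an adjusted p under 0.05 in edgeR, beside 2.84% of all genes (2 at an unadjusted p under 0.05, beside 11.3% of all genes). Around the Itih cluster, Mustn1, 4882 bases from Itih4, had a log2 fold change of 0.59 and groups that did not overlap (14.5% of all genes were higher without overlap). It passed the threshold of p under 0.01 but not the adjusted one (unadjusted p = 0.00680, adjusted p = 0.0728 from the edgeR test). Tmem110 (0.14), whose groups did not overlap either, and Nek4 (0.20) passed neither threshold. Afp and Afm, the relatives of Alb that follow it on chromosome 5, had log2 fold changes of 0.31 and -0.22 (adjusted p = 0.540 and 0.257 from the edgeR test), and Hrg and Kng2 beside the fetuins had -0.09 and 0.21 (adjusted p = 0.736 and 0.155).

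**Figure D3:**
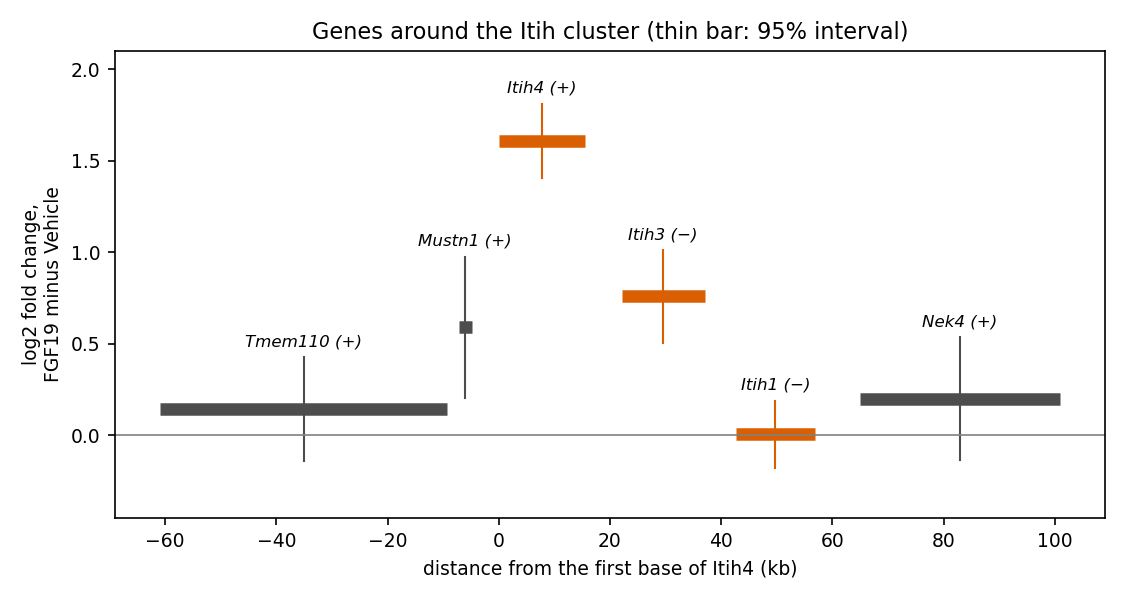
Genes within 50 kb of Itih1, Itih3 or Itih4 are drawn as bars along the distance in kb from the first base of Itih4, at the height of their log2 fold change, with thin lines for the 95% interval and the strand in parentheses. Itih4 at 1.61 and Itih3 at 0.76 lie side by side, and Itih1 next to them is at 0.01.

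The proteins that act on the heavy chains or on hyaluronan were examined as a list of 13 genes, of which 7 were tested. Of these 1 was higher and 0 were lower, and the median log2 fold change was 0.14. Over all genes tested 4.56% were higher and 2.84% lower, and the counts of this list are near that background. Ambp, the bikunin precursor, was at 1846, 2122 and 2002 CPM with vehicle and at 2029, 1999 and 2547 CPM with FGF19 (log2 fold change 0.14, 95% interval -0.13 to 0.40, adjusted p = 0.540 from the edgeR test). FGF19 replicate 3 was the highest and the other 2 lay within the vehicle range. Itih5, a heavy chain gene 22860 bases from Itih2, was between 22.8 and 33.4 CPM with vehicle and between 19.7 and 24.6 CPM with FGF19 (log2 fold change -0.43, adjusted p = 0.128 from the edgeR test). Tnfaip6 had between 0 and 2 counts in each library, under the limit of 3 counts that a count of 0 allows, and was not tested. Has1 and Has2, which encode hyaluronan synthases, had 0 counts in all libraries. Cd44, a hyaluronan receptor, rose from between 5.36 and 5.95 CPM to between 8.78 and 13.0 CPM (log2 fold change 0.85, adjusted p = 0.0195 from the edgeR test). That call was lost without vehicle replicate 1, 2 or 3 or without FGF19 replicate 2 (adjusted p up to 0.0958). Lyve1 and Stab2, also hyaluronan receptors, had higher mean levels with vehicle, 42.6 and 44.3 CPM, and were not called. Their log2 fold changes were 0.20 and -0.01 (adjusted p = 0.386 and 0.964 from the edgeR test). In the lower direction 1 gene of this list, Itih5, had an unadjusted p under 0.05 (11.3% of all genes), and DESeq2, the likelihood ratio test and limma-voom called 0.

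Of 12 other carriers and negative acute phase genes, all tested, 1 was higher and 0 were lower in edgeR's quasi-likelihood test. Over all genes tested 4.56% were higher and 2.84% lower, and these counts are near that background. The log2 fold change was below 0 for 9 of the 12, with a median of -0.14. At an unadjusted p under 0.05, 4 of the 12 were lower and 2 higher (11.3% and 11.6% of all genes), and DESeq2, the likelihood ratio test and limma-voom called 1, 1 and 0 lower. The lower genes were Serpina6 (corticosteroid-binding globulin), with a log2 fold change of -0.63 and overlapping groups (unadjusted p = 0.00704, adjusted p = 0.0741 from the edgeR test), and Igf1 (-0.34), Serpinc1 (-0.21) and Pon1 (-0.21), whose groups did not overlap. Over all genes tested 13.8% were lower and 14.5% higher without overlap. The higher genes were Serpina7 and Trf (transferrin), which had a log2 fold change of 0.30 with groups that did not overlap (adjusted p = 0.117 from the edgeR test). The gene that rose was Serpina7, which encodes thyroxine-binding globulin and so carries the same hormone as Ttr. It was at 8.34, 1.59 and 4.71 CPM with vehicle and at 63.5, 61.5 and 21.4 CPM with FGF19 (log2 fold change 3.30, adjusted p = 0.00605 from the edgeR test). It was called in all 15 alternative fits, in which its log2 fold change was between 2.90 and 3.94. Against these genes stand 12 positive acute phase genes, chosen with their rise in these data known, of which 12 were higher with a median log2 fold change of 2.03. They took between 1.75% and 2.13% of the counts with vehicle and between 5.91% and 6.25% with FGF19. Itih4, with 1.61, lies within the range of these 12 genes (1.24 to 8.28), and Itih3, with 0.76, lies below it.

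Of 15 genes for receptors and cargo of the carriers, 11 were tested, 0 were higher and 1 was lower (median log2 fold change -0.11). Over all genes tested 4.56% were higher and 2.84% lower, and these counts are near that background. The lower gene was Asgr2, a subunit of the receptor that clears glycoproteins without terminal sialic acid. It was at 207, 223 and 234 CPM with vehicle and at 165, 154 and 183 CPM with FGF19 (log2 fold change -0.40, adjusted p = 0.0351 from the edgeR test). Of the 6 fits that left out a library, only that without FGF19 replicate 3 kept the call, it was also lost with the replicate number as a block, and the adjusted p over all 15 alternatives was at most 0.159. At an unadjusted p under 0.05, 4 of the 11 were lower and 2 higher (11.3% and 11.6% of all genes), and DESeq2, the likelihood ratio test and limma-voom called 0 higher. Beside Asgr2, the lower genes were Cyp2r1 (log2 fold change -0.44), Cyp27a1 (-0.32) and Fcgrt (-0.28), a receptor for albumin. Their groups did not overlap (13.8% of all genes were lower without overlap). The higher genes were Dio1 (0.41) and Lrat (0.33), whose groups overlapped.

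Of 12 genes for regulators of hepatocyte secretory genes, 12 were tested, 1 was higher and 3 were lower (median log2 fold change -0.28). Over all genes tested 4.56% were higher and 2.84% lower, and the count of 1 higher is near that background. Stat3, which carries the IL-6 signal to acute phase genes, rose from between 88.7 and 105 CPM to between 127 and 147 CPM (log2 fold change 0.49, adjusted p = 0.0172 from the edgeR test). Dbp, a circadian activator first found at the albumin promoter, fell from between 16.4 and 27.9 CPM to between 5.30 and 11.7 CPM (log2 fold change -1.59, adjusted p = 0.0128), while Alb itself had the log2 fold change of -0.06 given above. Onecut1 (a hepatocyte nuclear factor) and Nr1i3 (a nuclear receptor for foreign compounds) were lower, with log2 fold changes of -1.40 and -0.64 (adjusted p = 0.0159 and 0.0381 from the same edgeR test). Hnf4a and Cebpa, whose proteins bind promoters of many plasma protein genes, were below every vehicle library in each FGF19 library, as were 13.8% of all genes tested. Their log2 fold changes were -0.31 and -0.26, and they did not pass the adjustment (adjusted p = 0.120 and 0.126 from the edgeR test). Cebpb overlapped between the groups (log2 fold change 0.08, adjusted p = 0.856 from the edgeR test). At an unadjusted p under 0.05, 6 of the 12 regulators were lower and 1 was higher, beside 11.3% and 11.6% of all genes. With each library left out in turn Stat3 was called in 2 of 6 fits, Dbp in 4, Onecut1 in 3 and Nr1i3 in 1. Stat3 lost its call without vehicle replicate 1 or 3 or FGF19 replicate 1 or 2, Dbp without vehicle replicate 3 or FGF19 replicate 2, and Onecut1 without vehicle replicate 1 or 3 or FGF19 replicate 2. Nr1i3 kept it only without FGF19 replicate 3, and the highest adjusted p in these fits was 0.139, that of Nr1i3. With the replicate number as a block Stat3 lost its call too.

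**Figure D4:**
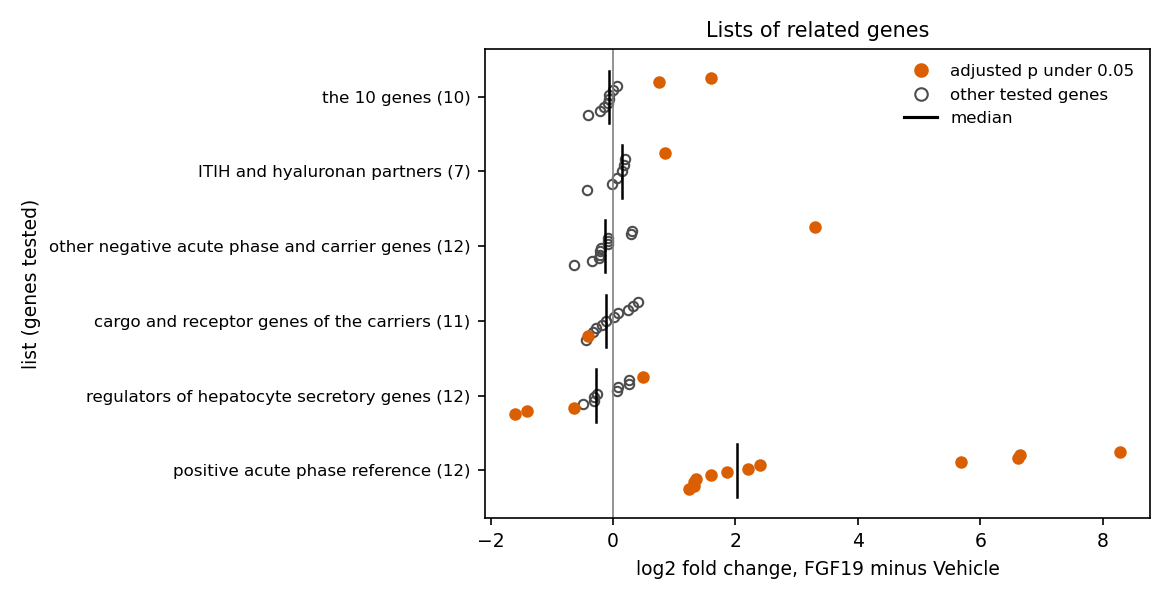
Each point is a tested gene at its log2 fold change, FGF19 minus vehicle, in rows for the 10 genes and 5 lists of related genes, filled orange where the edgeR fit gave an adjusted p under 0.05, with a black line at the median of each row. The positive acute phase genes all lie above 1, and the medians of the other rows are between -0.28 and 0.14.

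In whole liver, fewer cells of a type and less RNA per cell cannot be told apart. The 10 hepatocyte markers checked, none of them among the 10 genes, were all detected, as the label of the tissue has it, and their summed level was between 30596 and 32059 CPM with vehicle and between 27654 and 28241 CPM with FGF19, with 2 of 10, among them Asl, lower at an adjusted p under 0.05. This sum did not overlap between the groups, and its part in the values of the carriers was not tested. Of the 10 markers, 3 had log2 fold changes above 0, Tat (0.39, unadjusted p = 0.0283 from the edgeR test), Apob (0.12) and Hal (0.08). Over all genes tested 4.56% were higher and 2.84% lower at an adjusted p under 0.05, and 13.8% were lower without overlap. The 9 Kupffer cell markers summed to between 261 and 313 CPM and between 249.6 and 312 CPM, with 1 of 9, Marco, higher. Another 5 of the 9 had log2 fold changes below 0, among them Vsig4 (-0.54, groups not overlapping, unadjusted p = 0.00733 and adjusted p = 0.0755 from the edgeR test). The 7 neutrophil markers found summed to between 2.24 and 3.18 CPM with vehicle and between 5.63 and 8.22 CPM with FGF19, with 1 of the 2 tested, S100a9, higher, and their part in the rise of Itih3 and Itih4 was not tested. The summed levels of lymphocyte (4.10 to 7.24 and 2.49 to 5.65 CPM), endothelial (205 to 218 and 195 to 217 CPM), stellate (206 to 289 and 199.7 to 248 CPM), cholangiocyte (71.8 to 89.0 and 55.7 to 86.0 CPM), erythroid (57.2 to 78.6 and 43.6 to 57.5 CPM, all of it from Alas2) and pancreatic acinar markers (5.86 to 7.26 and 6.20 to 6.57 CPM) are given with vehicle before FGF19. Of these lists 1 gene was called, the endothelial gene Cdh5, which was higher (log2 fold change 0.43), while 3 of the 6 endothelial markers had log2 fold changes below 0, among them Clec4g (-0.38, groups not overlapping, unadjusted p = 0.00694 and adjusted p = 0.0736 from the edgeR test). Hba-a1, Hba-a2, Hbb-b1 and Hbb-b2 of the erythroid list and Prss1, Amy2a5 and Try4 of the acinar list had 0 counts in all libraries. The globin genes overlap each other in pairs and multi-mapping reads were not counted, so their 0 counts do not show that globin RNA was absent.

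The genes most like each of the 10 across the 6 libraries were found by Pearson's r of log2 CPM among 1290 other genes with a mean of at least 100 CPM. The difference between the treatments enters every r, so these values describe the 6 libraries and carry no test. For Itih4 they were Lcn2, Xdh and Copz1 (r = 0.999, 0.999 and 0.998), and for Itih3 they were Xbp1, Orm1 and Fgl1 (r = 0.993, 0.991 and 0.990). For Rbp4 they were Agpat3, Hpd and Masp2 (r = 0.995, 0.992 and 0.992), of which Hpd was also 1 of the 10 hepatocyte markers. For Ttr they were Tst, Hamp and Gcdh (r = 0.992, 0.982 and 0.982), for Alb Cyp4a12b, Chchd10 and Rarres2 (r = 0.988, 0.982 and 0.980), and for Gc Sfxn1, Cyp2d10 and Ociad1 (r = 0.987, 0.984 and 0.983). For Ahsg they were C1ra, Kng1 and Neat1 (r = 0.968, 0.964 and 0.956), for Fetub Plbd2, Mettl7a1 and 1300017J02Rik (r = 0.992, 0.984 and 0.982), and for Itih2 Ehhadh and Ugt1a1 (r = 0.982 and 0.980). Itih1 had no close match, with r of at most 0.830 (Srsf5).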

How the data were processed

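Liver RNA was measured by RNA-seq in 3 vehicle and 3 FGF19 libraries. Per the labels and the file headers, the authors used bcl2fastq 2.17.1.14, Trimmomatic 0.36, FastQC 0.11.5 and STAR 2.5.3a (the methods and the reporting summary name other STAR versions) and counted reads on the exons of mm9 genes with featureCounts 1.5.2. The deposited value of a gene is its raw read count, without normalization and without use of strand. Mates were counted as separate reads, and multi-mapping reads were not counted. The deposited exon length of each gene, another measure from these files, was used for levels per kilobase. A table of the authors' own comparison (fold changes and p-values) was not used.

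Groups and replicate numbers came from the sample titles. The filterByExpr function of edgeR 4.0.16 (R 4.3.3) kept 12559 of 23284 genes, which were scaled by TMM and compared by the quasi-likelihood test without covariates (common dispersion 0.0163), and p-values were adjusted after Benjamini and Hochberg. The fits were tested on simulated data. Alternatives were DESeq2 1.42.0, limma-voom (limma 3.58.1), the likelihood ratio test, other scalings and filters, the replicate number as a block and each library left out. Shares and ratios were compared by two-sided exact permutation tests over the 6 libraries. Upstream sequences were read from the mm9 genome. The genes named were the 10 genes, the called genes of each list (at most 4) with Ambp, Itih5 and Tnfaip6, tested genes within 50 kb, and the 3 most alike genes, and others were chosen after their values were seen. Some genes that this rule names are not reported here. The 10 genes and the lists were chosen with earlier results of these data known. The upper limit for a gene without reads is 3 counts (0.136 to 0.159 CPM), for counting error only, since reads carry no molecular identifiers.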

Additional observations from a re-analysis of the deposited data

How the results depend on the processing

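The calls of Itih3 and Itih4 as higher held in all 15 alternative fits, at both thresholds. The count of lower genes among the 10 was 0 and became 1 with DESeq2 at an adjusted p under 0.05, and between 0 and 1 with each library left out. At p under 0.01 it became 1 with DESeq2, with no TMM scaling, with the likelihood ratio test and with no filter, and between 0 and 1 with each library left out. In each of these fits the gene was Rbp4. Directions turned for genes near 0. With each library left out, the log2 fold change was between -0.09 and -0.02 for Alb, between -0.10 and -0.02 for Gc and between -0.21 and -0.07 for Fetub, with the value nearest 0 without FGF19 replicate 2 for Alb and Fetub and without vehicle replicate 2 for Gc. Ahsg was between -0.027 and 0.127 with each library left out. Itih1 was at -0.00021 with no filter and between -0.019 and 0.040 with each library left out. The log2 difference of the ratio to Alb was between -0.028 and 0.045 for Gc and between -0.11 and 0.079 for Itih2 with each library left out, and -0.00056 for Gc in the edgeR fit with Alb as the reference. The share of counts taken by the 10 genes, 0.179 percentage points lower with FGF19, became 0.255 points higher when the positive acute phase genes were left out of the total. An upward shift was fixed in advance there, since those genes were chosen with their rise known.

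With each library left out, the higher genes numbered between 0 and 1 among the hyaluronan partners, between 0 and 1 among the receptor and cargo genes and between 0 and 1 among the regulators, and the lower genes between 0 and 2 among the other carriers, between 0 and 4 among the receptor and cargo genes and between 0 and 6 among the regulators. DESeq2 called 2 of the other carriers higher and 1 lower, and the likelihood ratio test and no filter also called 1 lower. The cause was not tested.

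Replicate numbers are shared by both groups, but same-numbered libraries did not deviate together (r = -0.03, -0.18 and -0.18 across genes), and no library correlated best with its own number. With the replicate number as a block, 2 of the 10 genes were higher and 0 lower, the receptor and cargo genes lost their lower call (0) and the regulators their higher call (0), and over all genes 370 were higher and 164 lower in place of 573 and 357. Over all genes the likelihood ratio test called 780 higher and 579 lower. With each library left out between 236 and 1016 were higher and between 91 and 927 lower, the highest counts being those without FGF19 replicate 3, and without any other library at most 398 were higher and 202 lower. Tnfaip6, Has1 and Has2 had at most 2 counts in a library, and at this depth low expression and none cannot be told apart.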
